A study of Mus musculus with 8 samples.

Results

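The genes described here are the Wnt ligands, their receptors, the R-spondins, the secreted Wnt inhibitors and a small set of Wnt targets, followed in astrocytes of the spinal cord with and without the potassium channel Kir4.1. Members were chosen by gene symbol, with earlier results of these data known. They are all symbols in the authors' comparison table that begin with Wnt or Fzd and a number, and the numbered Sfrp, Dkk and Rspo genes. Lrp5, Lrp6, Wif1, Axin2, Lef1, Tcf7, Nkd1 and Notum were included by name. This gave 49 genes of the 39179 in the count tables. They comprised 19 ligands, 12 receptors, 4 R-spondins, 10 secreted inhibitors and 4 targets or feedback genes. RNA was sequenced from 8 libraries of astrocytes sorted for the Aldh1l1-GFP reporter, which all animals carried, from mice of a mixed Swiss-Webster background at postnatal days 12 to 14. In 4 libraries the mice had Aldh1l1-cre and floxed/floxed Kir4.1 alleles, a conditional knockout written cKO (replicates S3, S4, S5 and S8). The 4 control libraries (S1, S2, S6 and S7) came from cre-negative mice whose genotype is labelled wild-type, and the labels do not say whether these carried floxed alleles. The cre line and the sorting reporter both use Aldh1l1 elements, so the same promoter defines the deletion and the gate, and the series describes the replicates of a group as biological.

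Wnt proteins are secreted lipid-modified ligands that bind Frizzled receptors together with the co-receptors Lrp5 or Lrp6. In the canonical branch this stabilizes beta-catenin, which enters the nucleus and acts with Lef1, Tcf7 and related factors to switch on targets such as Axin2, while R-spondins keep Frizzled receptors at the surface and Sfrp, Dkk, Wif1 and Notum proteins limit signalling from outside the cell. In the spinal cord the pathway is known for dorsal patterning, growth of progenitors, oligodendrocyte maturation and formation of blood vessels.

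The libraries held 13892736 to 25065686 gene reads, and 17312 to 20470 genes were detected. Kcnj10, which encodes Kir4.1, had 1181, 2306, 1856 and 1937 CPM (counts scaled by library size) in the controls, always listed as S1, S2, S6, S7. The cKO values, always listed as S3, S4, S5, S8, were 35.6, 27.2, 37.6 and 35.4 CPM, so the targeted gene fell in every cKO library (log2 fold change −5.74, edgeR adjusted p = 7.52e-08). None of the 10 astrocyte markers was at 0 in all libraries, with a summed level of 16464 to 24655 CPM in controls and 19326 to 23854 CPM in cKO. Within that list 5 genes had positive and 5 negative log2 fold changes, and 2 passed edgeR's adjusted threshold. Aldh1l1, whose elements drive the cre and the reporter, rose from 139 ± 8.65 to 282 ± 48.8 CPM (SD, n = 4 each, edgeR adjusted p = 0.0179), and the water channel gene Aqp4 from 2007 ± 354 to 4286 ± 783 CPM (SD, n = 4 each, edgeR adjusted p = 0.0243). Xist, which marks libraries with an inactive X chromosome, was at 1817 CPM or more in control S1, S6, S7 and cKO S4 and S8 with no more than 0.562 CPM elsewhere, and the labels give no sex. In the deposited table of FPKM, fragments scaled by transcript length and library size, only 3 of the 8 columns followed the count library of the same name over 10017 genes, while all 8 followed a library of the same group. FPKM values are therefore given as group values only, and values by library are CPM.

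In the 4 cKO libraries the receptors Fzd1 and Fzd2, the ligand Wnt7b and the inhibitor Sfrp2 stood below all controls. The receptors Fzd3 and Fzd9 and the co-receptor Lrp6 stood above all controls. For Fzd3 this rests on 45.765 CPM in cKO S5 against 45.756 CPM in control S6, and the counts below include it as separated. No Wnt member passed a threshold of 0.05 for the p adjusted over all genes in edgeR's quasi-likelihood test. That is 0 of 28 tested members, where 0.318% of 14757 genes passed, 0.203% higher and 0.115% lower. Point estimates of the receptors lay on both sides of 0, with 8 of 12 positive, of which Fzd8, at 0.01, turned negative under 5 of the 15 alternatives. At an unadjusted p under 0.05 there were 12 members, 8 with lower and 4 with higher counts in cKO, against 9.81% of all tested genes in either direction, 4.77% lower and 5.03% higher. Groups were fully apart for 7 of the 28 members, 3 higher and 4 lower, against 6.34% of all tested genes, 3.39% higher and 2.94% lower. A gene can pass the filter on low counts through 1 group alone. Among the 24 members with at least 10 counts in every library, which leaves out Sfrp2, Sfrp5, Tcf7 and Wnt3, 6 did not overlap and 10 had an unadjusted p under 0.05, against 6.64% and 10.4% of the 11824 genes that met the same condition.

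How many members were called depended on the tool and on the filter. DESeq2 on the same counts gave 30 members an adjusted p and called 6 of them, where it called 2.49% of all genes, 1.3% higher and 1.19% lower. These were Fzd1, Fzd2, Wnt7b, Sfrp2 and Sfrp5, lower in cKO, and Fzd9, higher in cKO. The authors' deposited table, also made with DESeq2, called 6 of 27 members with an adjusted p, 5 lower and 1 higher, where it called 2.87% of all genes, 1.49% higher and 1.38% lower. Its adjusted p was 0.00158 for Sfrp5, 0.00224 for Fzd1, 0.0048 for Wnt7b, 0.0208 for Sfrp2, 0.0271 for Fzd2 and 0.0404 for Fzd9. limma-voom, like edgeR, called 0 members. The median log2 fold change was −0.37 over the 28 tested members and −0.02 over all tested genes. The member median moved with the setting. It was −0.17 over the 24 members with at least 10 counts in every library, and −0.17 with limma-voom. Leaving out 1 library gave −0.15 (without cKO S8) to −0.54 (without cKO S4).

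**Figure D1:**
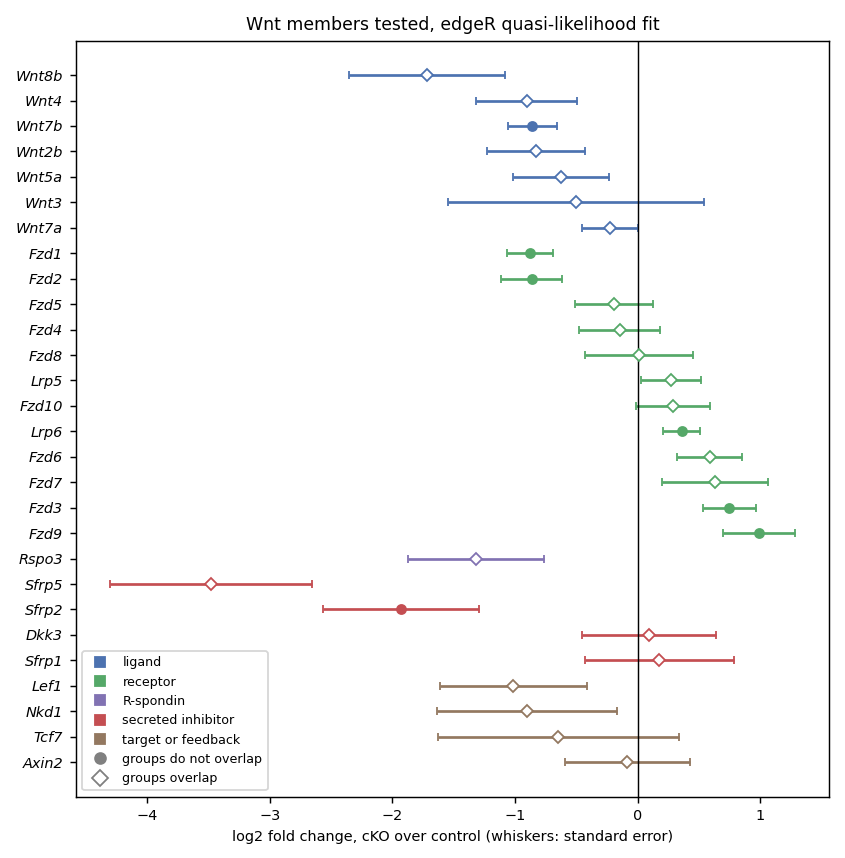
Log2 fold change of each tested Wnt member, cKO over control, from edgeR with its standard error, ordered by role. Filled circles mark members whose libraries did not overlap between the groups, and the receptors run from Fzd1 at −0.88 to Fzd9 at 0.99.

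Expression of the family was concentrated in few members. Of the 49 genes, 10 had no count in any library, namely Wnt1, Wnt2, Wnt3a, Wnt8a, Wnt10a, Wnt10b, Rspo2, Rspo4, Dkk4 and Wif1. The limit that a count of 0 allows is 3 counts, which is 0.128 to 0.218 CPM depending on the library. A further 11 had counts but were too low to be tested, with at most 168 counts summed over the 8 libraries, a total reached by Wnt5b. The others were Wnt6, Wnt9a, Wnt9b, Wnt11, Wnt16, Rspo1, Sfrp4, Dkk1, Dkk2 and Notum. Dorsal midline ligands Wnt1 and Wnt3a, which pattern the embryonic cord, were thus not detectable at this depth.

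Levels of different genes were compared per length. Scaled to CPM per kilobase of merged exons, Fzd1 was the highest member in controls at 54.3 ± 9.10 (SD, n = 4), followed by the ligand Wnt7a at 24.0 ± 1.55 and the ligand Wnt7b at 11.2 ± 2.12 (SD, n = 4 each). The co-receptor Lrp6 and the receptor Fzd10 came next. On the deposited FPKM scale the top members were Wnt7a, with a control mean of 295, Fzd1 with 78.4, Wnt7b with 23.2 and Lrp6 with 19.2. Wnt7a and Fzd1 thus exchange places between the scales. Among the 15 highest members by FPKM, each from Wnt7b downwards overlapped the next in its control range. At or above 1 FPKM in the mean there were 27 members in controls and 24 in cKO.

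**Figure D2:**
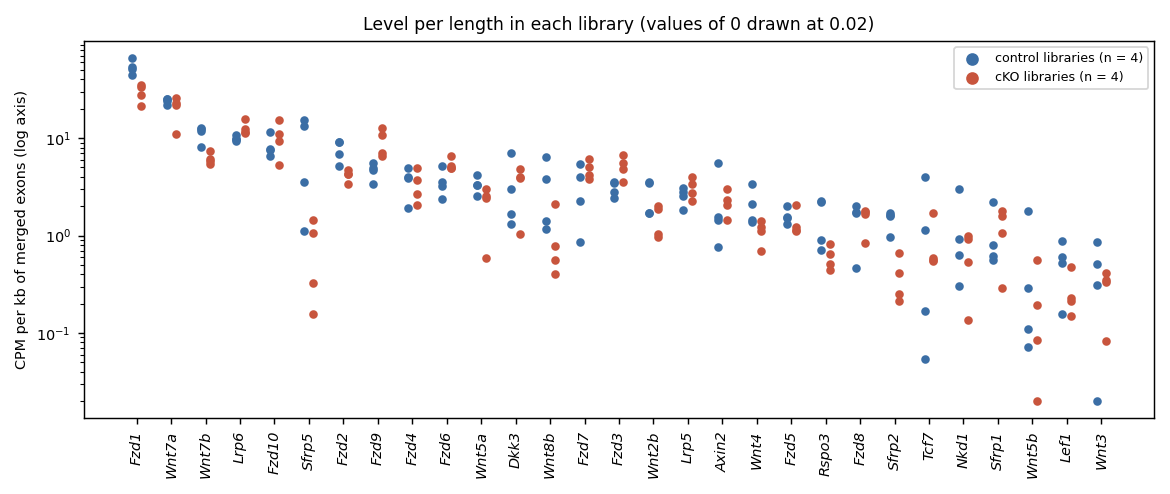
Level of each Wnt member in each library as CPM per kilobase of merged exons on a log axis, ordered by the control mean, for members above 0.3 on average. Controls are in blue and cKO in red, Fzd1 stands highest with a control mean of 54.3, and controls and cKO are apart for Fzd1, Wnt7b, Fzd2 and Fzd9, for example.

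Fzd1, a Frizzled receptor encoded by 1 exon on chromosome 5 (4753839 to 4758035, minus strand, GRCm38), was at 279, 217, 188 and 227 CPM in controls and at 146, 141, 117 and 90.3 CPM in cKO. Every cKO library was below the lowest control, S6. Its log2 fold change was −0.88 (standard error 0.19, edgeR unadjusted p = 0.000424, adjusted p = 0.0838). Filters on low counts that kept either more or fewer genes brought the edgeR adjusted p of Fzd1 to 0.0471 and 0.0412. DESeq2 gave an adjusted p of 0.00257. The other 12 of the 15 alternatives did not call Fzd1. When 1 library was left out its edgeR adjusted p was 0.0937 to 0.244, so the call depended on the setting. In bulk libraries fewer cells of a type and less RNA per cell cannot be told apart.

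The upstream 250 bases of Fzd1 are shown because this was the most abundant receptor and the member with the lowest unadjusted p, with those of Sfrp2 and Sfrp5, the inhibitors described further on. Sequences are RefSeq's promoter windows on GRCm38.p6, read 5′ to 3′ on the gene's strand up to the base before the RefSeq start, for Fzd1 chr5:4758217-4758466 (minus), for Sfrp2 chr3:83766071-83766320 (plus) and for Sfrp5 chr19:42202253-42202502 (minus). Capitals mark the core that Lef1 and Tcf7 proteins are known to bind, CTTTGA, or its reverse complement TCAAAG, searched on both strands.
Fzd1: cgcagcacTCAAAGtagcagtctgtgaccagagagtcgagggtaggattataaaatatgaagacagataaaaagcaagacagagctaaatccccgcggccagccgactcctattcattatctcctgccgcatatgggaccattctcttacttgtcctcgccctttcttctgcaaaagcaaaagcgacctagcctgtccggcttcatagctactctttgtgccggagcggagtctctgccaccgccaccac
Sfrp2: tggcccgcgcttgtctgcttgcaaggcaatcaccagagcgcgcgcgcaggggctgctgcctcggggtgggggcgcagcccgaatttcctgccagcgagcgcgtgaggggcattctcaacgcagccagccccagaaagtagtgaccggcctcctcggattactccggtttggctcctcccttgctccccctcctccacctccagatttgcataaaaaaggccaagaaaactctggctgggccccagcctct
Sfrp5: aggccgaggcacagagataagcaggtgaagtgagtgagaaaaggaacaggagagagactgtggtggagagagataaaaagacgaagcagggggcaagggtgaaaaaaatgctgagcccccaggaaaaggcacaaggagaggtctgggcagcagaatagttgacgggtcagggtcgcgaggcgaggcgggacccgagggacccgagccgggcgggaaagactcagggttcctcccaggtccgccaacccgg
The core occurred once in the Fzd1 window, starting 242 bases before the RefSeq start, and in neither of the other windows. GENCODE starts Fzd1 at 4758035, further downstream, so the window and this distance hold for the RefSeq start only. RefSeq windows were matched for 32 of the 49 members, 17 of them tested, with 39 starts in all, of which 5 held the core (12.8%). Over 32851 starts of all genes the share was 13.8%. These matches describe letters and are not binding sites.

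Fzd2, a close relative of Fzd1 on chromosome 11 (102604396 to 102608058), was at 33.5, 33.7, 18.8 and 25.2 CPM in controls and at 15.8, 17.1, 12.4 and 15.8 CPM in cKO, in the same library order. The highest cKO library, S4, was just under the lowest control, S6. Its log2 fold change of −0.86 (standard error 0.25) had an adjusted p of 0.228 in edgeR and 0.0303 in DESeq2.

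Fzd3, a receptor best known for axon guidance and planar cell polarity, was at 35.9, 31.0, 45.8 and 44.2 CPM in controls and at 61.4, 85.3, 45.8 and 70.5 CPM in cKO. The groups met at 45.756 CPM in control S6 and 45.765 CPM in cKO S5, so their separation rests on a margin far below the spread. The estimated log2 fold change was 0.74 (standard error 0.22, edgeR adjusted p = 0.235). Fzd9 was at 10.8, 12.8, 7.80 and 11.3 CPM in controls and at 15.02, 24.6, 29.2 and 16.1 CPM in cKO. All cKO libraries of Fzd9 lay above the controls, with S4 and S5 highest, and its log2 fold change was 0.99 (standard error 0.29, adjusted p = 0.247 in edgeR and 0.0444 in DESeq2). For Fzd6, another planar polarity receptor, values were 15.7, 17.2, 25.2 and 11.3 CPM in controls and 23.7, 25.2, 24.0 and 31.4 CPM in cKO. Control S6 reached into the cKO range of Fzd6, whose log2 fold change came to 0.59 (standard error 0.26, edgeR adjusted p = 0.491). Fzd6 shares 152 exon bases with an annotated gene on the other strand, and Fzd3 shares none.

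The remaining Frizzled genes gave overlapping groups. Fzd10 was at 37.8, 24.8, 21.3 and 25.3 CPM in controls and at 30.2, 36.0, 49.98 and 17.1 CPM in cKO, with S5 highest and S8 lowest of all libraries. Fzd4, the receptor for Norrin in vascular development, was at 26.6, 26.4, 33.6 and 12.7 CPM in controls and at 24.8, 33.3, 17.8 and 13.7 CPM in cKO. Fzd7 was at 24.3, 10.2, 18.0 and 3.93 CPM in controls and at 19.2, 22.9, 27.9 and 17.3 CPM in cKO. Their log2 fold changes were 0.29, −0.15 and 0.63, with edgeR adjusted p of 0.808, 0.924 and 0.681. Single libraries set much of these values. Fzd10 came to 0.03 without cKO S5, 0.18 without control S6, 0.48 without control S1 and 0.51 without cKO S8. Fzd7 came to 0.32 without control S7 and 1.02 without control S1. Fzd4 came to 0.033 without control S6, 0.028 without cKO S8, −0.05 without cKO S5, −0.36 without control S7 and −0.40 without cKO S4. Fzd5 and Fzd8 were lower still, at 11.04 ± 2.02 and 8.91 ± 4.16 CPM in controls and 9.65 ± 3.18 and 8.98 ± 2.68 CPM in cKO (SD, n = 4 each), with log2 fold changes of −0.19 and 0.01.

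**Figure D3:**
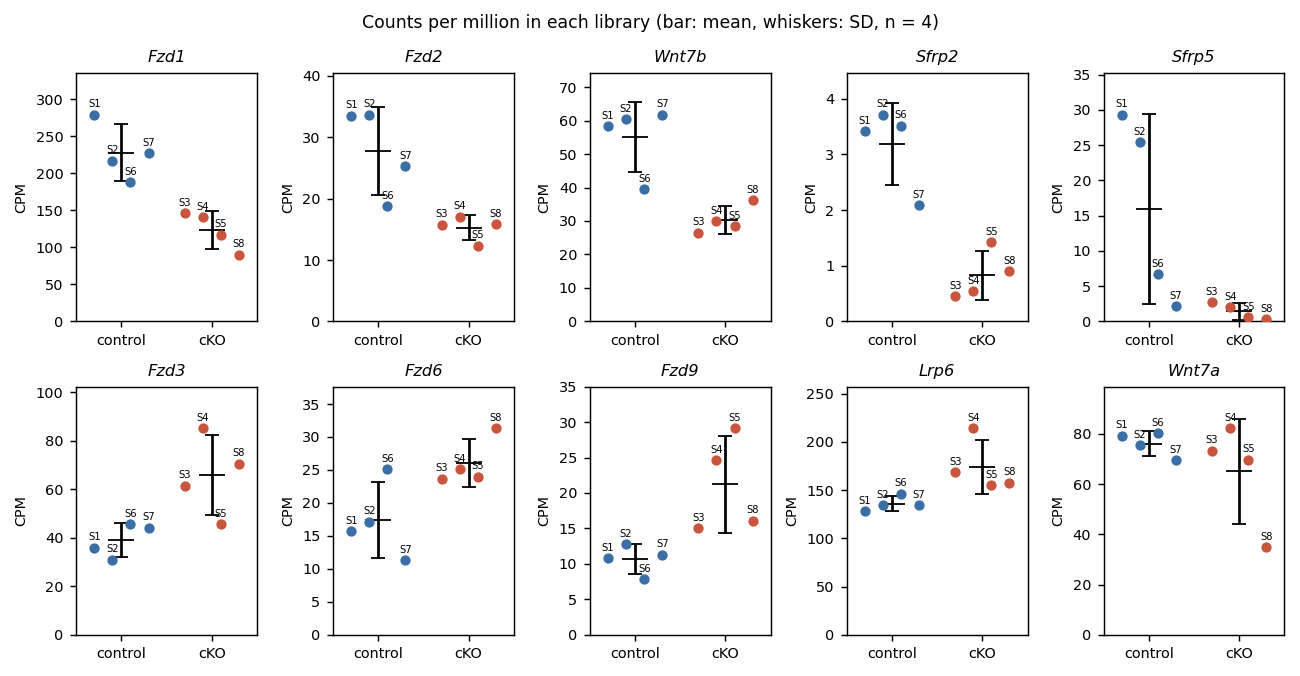
CPM of 10 Wnt members in each library, with controls in blue, cKO in red, and the mean and SD of each group (n = 4). Fzd1, Fzd2, Wnt7b and Sfrp2 lie lower in all cKO libraries, and Fzd3, Fzd9 and Lrp6 higher, Fzd3 by a margin far below the spread. The groups overlap for Sfrp5, Fzd6 and Wnt7a.

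The makeup of the Frizzled pool is described by shares. As a share of the summed Frizzled level per kilobase, Fzd1 made up 59.7%, 57.7%, 55.5% and 64.2% in controls and 45.6%, 39.6%, 35.1% and 37.1% in cKO, with no overlap. Fzd9 made up 4.22% to 6.23% in controls and 8.57% to 16.0% in cKO. Fzd3 had shares of 2.52% to 4.43% and 4.49% to 9.50%, and Fzd7, whose own counts overlapped, of 1.03% to 4.93% and 5.53% to 7.72%. For the other 6 Frizzled genes the shares overlapped. The summed level itself overlapped, with means of 91.5 ± 13.8 CPM per kilobase for controls and 74.8 ± 11.7 for cKO (SD, n = 4 each). Computed from group means instead, the share of Fzd1 was 59.3% in controls and 39.4% in cKO, and on the FPKM scale 52.6% and 33.0%. Each share depends on the level of Fzd1, the largest term of the sum, and the shares were not tested.

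**Figure D4:**
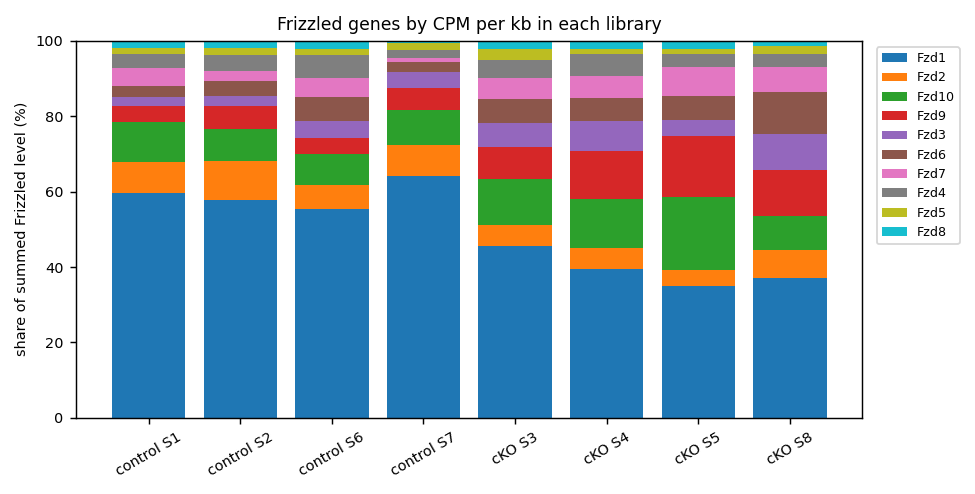
Share of each of the 10 Frizzled genes in the summed Frizzled level of a library, from CPM per kilobase of merged exons. Fzd1 takes 55.5% to 64.2% in the 4 control libraries and 35.1% to 45.6% in the 4 cKO libraries.

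The co-receptor Lrp6 (chromosome 6, 134446476 to 134566965) was at 128, 134, 146 and 134 CPM in controls and at 168, 214, 155 and 158 CPM in cKO. Controls were tightly grouped and cKO S4 was highest. The log2 fold change came to 0.36 (standard error 0.15, edgeR adjusted p = 0.466), a small difference that DESeq2 did not call either (adjusted p = 0.274). Lrp5, its relative with a role in vessel growth and bone, was at 27.3, 25.0, 18.0 and 30.2 CPM in controls and at 22.3, 33.1, 26.6 and 39.3 CPM in cKO. Its groups overlapped, with a log2 fold change of 0.27 and an edgeR adjusted p of 0.767, and estimates of 0.12 without cKO S8 and 0.14 without control S6.

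Wnt7a and Wnt7b, related ligands that act on brain and cord endothelium and on oligodendrocyte precursors, made up 65.6% to 79.0% of the summed Wnt ligand level per kilobase in controls and 71.6% to 86.7% in cKO. Wnt7b (chromosome 15, 85535437 to 85582473) was at 58.3, 60.4, 39.5 and 61.8 CPM in controls and at 26.6, 29.9, 28.6 and 36.3 CPM in cKO. Control S6 lay nearest to the cKO libraries, of which S8 was highest. Its log2 fold change was −0.86 (standard error 0.20, edgeR unadjusted p = 0.000882, adjusted p = 0.113, and DESeq2 adjusted p = 0.00593). Wnt7b shares 324 exon bases with an annotated gene on the other strand.

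For Wnt7a the groups overlapped and 1 cKO library was far below the rest. It was at 79.3, 75.5, 80.3 and 69.4 CPM in controls while S3, S4 and S5 among the cKO libraries had 73.3, 82.4 and 69.7 CPM and S8 had 34.8 CPM. The estimated log2 fold change was −0.23 (standard error 0.23, edgeR adjusted p = 0.801), and −0.02 without cKO S8, −0.36 without cKO S4 and −0.10 with library totals. On the deposited FPKM scale the groups also overlapped, at 244 to 351 in controls and 93.5 to 270.5 in cKO, but the means lay further apart, at 295 and 162. Over all 8 libraries Wnt7a averaged 229 FPKM and 22.3 CPM per kilobase, and Fzd1 60.2 and 41.9, so the scales disagree far more for Wnt7a, and its FPKM level and rank are uncertain. In cKO S8 the level of Wnt7b per kilobase was 0.675 times that of Wnt7a, against 0.235 to 0.265 times in the other cKO libraries and 0.319 to 0.576 times in controls.

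Wnt5a, the prototype of ligands that signal without beta-catenin, was at 32.6, 20.1, 26.0 and 25.6 CPM in controls and at 19.2, 23.7, 4.62 and 19.9 CPM in cKO. Library cKO S5 was far below the rest, and the log2 fold change was −0.63 (standard error 0.39, edgeR adjusted p = 0.637) and −0.31 without it. Wnt4 was at 5.77, 6.11, 8.84 and 14.1 CPM in controls and at 5.98, 5.08, 2.91 and 4.62 CPM in cKO. Its groups overlapped at control S1 and cKO S3 (log2 fold change −0.91, edgeR adjusted p = 0.501), and its log2 fold change was −0.56 without control S7. Wnt8b was at 13.2, 4.88, 22.3 and 4.07 CPM in controls and at 2.71, 1.41, 1.94 and 7.41 CPM in cKO. Control S1 and S6 stood high for Wnt8b and cKO S8 overlapped the other controls (log2 fold change −1.72, standard error 0.64, edgeR adjusted p = 0.377), and without control S6 the estimate was −1.13.

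Of the other tested ligands, Wnt2b was at 10.95 ± 4.39 CPM in controls and 6.17 ± 2.27 CPM in cKO, and Wnt3 at 1.29 ± 1.11 and 0.908 ± 0.447 CPM (SD, n = 4 each). All 7 tested ligands had negative log2 fold changes, where the median over all tested genes was −0.02. Of the ligands 3 had an edgeR unadjusted p under 0.05, where 4.77% of all tested genes were lower at that p. The sign alone says little for Wnt7a, at −0.02 without cKO S8, and for Wnt3, with an edgeR adjusted p of 0.914. Unlike the other 6, Wnt3 turned positive with limma-voom and without control S6. The summed ligand level was 45.7 to 50.9 CPM per kilobase in controls and 25.7 to 38.2 in cKO.

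Only Rspo3 of the 4 R-spondins was high enough to be tested. It was at 6.91, 2.18, 6.92 and 2.79 CPM in controls and at 2.55, 1.59, 1.37 and 2.01 CPM in cKO. Control S1 and S6 were high and the other controls fell among or next to the cKO values, with a log2 fold change of −1.32 (standard error 0.56, edgeR adjusted p = 0.455). Rspo1 had 24 counts in controls and 0 in cKO, too few for a test.

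Sfrp5, a decoy that binds Wnt ligands outside the cell (chromosome 19, 42197971 to 42202252), had the largest fold change of the 28 tested members. It was at 29.3, 25.4, 6.76 and 2.13 CPM in controls and at 2.76, 1.996, 0.627 and 0.2996 CPM in cKO. Control S1 and S2 were far above the rest, while control S7 lay below cKO S3, so the groups overlapped. The log2 fold change came to −3.48 (standard error 0.82, edgeR unadjusted p = 0.000998, adjusted p = 0.123). Without control S7 it was −3.85 with an edgeR adjusted p of 0.0479, and limma-voom gave an adjusted p of 0.416.

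Sfrp2, a related decoy, was at 3.42, 3.71, 3.52 and 2.08 CPM in controls and at 0.460, 0.544, 1.42 and 0.899 CPM in cKO. The groups did not overlap, on 213 counts summed over the controls and 67 over cKO. Its log2 fold change was −1.93 (standard error 0.64, adjusted p = 0.310 in edgeR and 0.0252 in DESeq2). Sfrp2 shares 347 exon bases with an annotated gene on the other strand, as do Wnt5a (358), Rspo3 (404), Lef1 (1208), Axin2 (209) and Fzd5 (1233). How reads over these bases were assigned is not known. For Sfrp1 and Dkk3 the groups overlapped, at 4.57 ± 3.36 and 10.9 ± 8.78 CPM in controls and 5.18 ± 2.93 and 11.6 ± 5.60 CPM in cKO (SD, n = 4 each). Dkk1, Dkk2, Sfrp4 and Notum had at most 53 counts over all libraries and were not tested.

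None of the 4 canonical readouts passed an unadjusted p of 0.05. Axin2, a feedback inhibitor widely used as a readout of beta-catenin signalling, was at 8.56, 7.93, 4.23 and 30.6 CPM in controls and at 12.8, 16.6, 11.2 and 7.88 CPM in cKO. Control S7 was highest of all libraries for Axin2, and its log2 fold change of −0.09 (standard error 0.51, edgeR adjusted p = 0.974) turned positive under 5 of the 15 alternatives, among them library totals and leaving out control S7. Lef1 was at 7.80, 5.24, 4.56 and 1.37 CPM in controls and at 4.19, 1.86, 1.31 and 2.01 CPM in cKO (log2 fold change −1.01, edgeR adjusted p = 0.620). Tcf7 ranged from 0.142 to 10.4 CPM in controls and 1.42 to 4.45 CPM in cKO (log2 fold change −0.65, edgeR adjusted p = 0.877). Nkd1, a Dishevelled-binding feedback inhibitor, ranged from 1.37 to 13.7 CPM and 0.627 to 4.54 CPM (log2 fold change −0.90, edgeR adjusted p = 0.738). The estimate for Tcf7 turned positive with limma-voom, with Xist as a covariate and without control S6, and that for Nkd1 without control S1. With standard errors of 0.51 to 0.98 on the log2 scale, a difference of the size seen for the receptors was not detectable in these targets.

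Single libraries stood out for several members and for markers of other cells, and whether members and markers went together was not tested. Control S7 was the highest of the 8 libraries for 5 tested members (Axin2, Dkk3, Sfrp1, Wnt4 and Wnt7b) and the lowest for 6 (Fzd4, Fzd6, Fzd7, Fzd8, Tcf7 and Wnt3). It also had the highest summed level of markers of oligodendrocyte precursors, 1233 CPM against 311 to 768 in the other libraries, and of oligodendrocytes, 2950 CPM against 983 to 2413. Library cKO S5, with the fewest detected genes (17312), was the lowest of the 8 for 8 tested members (Wnt4, Wnt5a, Fzd2, Rspo3, Sfrp1, Dkk3, Lef1 and Nkd1). Control S6, highest for 6 (Wnt2b, Wnt3, Wnt8b, Fzd4, Rspo3 and Tcf7), had a summed fibroblast marker level of 588 CPM against 98.8 to 204 in the others. Several marker lists, though not all, had lower summed means in cKO, where Fzd1, Fzd2, Wnt7b, Sfrp2 and Sfrp5 were also lower. Oligodendrocyte markers summed to 1480 to 2950 CPM in controls and 983 to 2413 in cKO, with 10 of 10 lower. Of these 3 had an edgeR unadjusted p under 0.05, where 4.77% of all tested genes were lower at that p. Fibroblast markers, 5 of 6 lower, summed to 122 to 588 and 98.8 to 170 CPM. The 8 precursor markers summed to 408 to 1233 CPM in controls and 311 to 554 in cKO, with 7 of 8 lower and none at 0. Among the precursor markers 5 were lower at an edgeR unadjusted p under 0.05. Gpr17 alone held 450 CPM of their control mean of 736 CPM. Neuron markers summed to 51.3 to 89.0 and 34.5 to 56.8 CPM, with 7 of 9 tested lower. Mural markers, 4 of 6 tested lower, were at 101 to 122 and 58.9 to 98.0 CPM. Notch3 and Pdgfrb, with control means of 65.9 and 36.6 CPM, held most of the mural control mean of 111 CPM. The endothelial list summed to 271 to 472 CPM in controls and 464 to 818 in cKO, of which the glucose transporter gene Slc2a1 held 72.8% to 96.7%. Slc2a1 was at 294 ± 96.6 CPM in controls against 593 ± 176 CPM in cKO (SD, n = 4 each, edgeR adjusted p = 0.156), with no overlap. Without Slc2a1 the list summed to 44.3 to 73.6 and 24.3 to 57.6 CPM, and 8 of its 10 genes had negative fold changes. Microglia markers summed to 27.0 to 44.8 CPM in controls and 25.9 to 56.6 in cKO, with 5 of 7 tested higher. Ependymal markers, 4 of 6 tested lower, summed to 11.3 to 33.7 and 11.6 to 39.0 CPM. Schwann markers, of which 1 was tested and was higher, summed to 67.7 to 152 and 96.2 to 186 CPM. At an edgeR unadjusted p under 0.05 the neuron list had 2 lower genes and the mural list 1. The fibroblast list had 2 lower and 1 higher, and the endothelial list 3 lower and 1 higher. The part of other cells in these results was not tested.

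**Figure D5:**
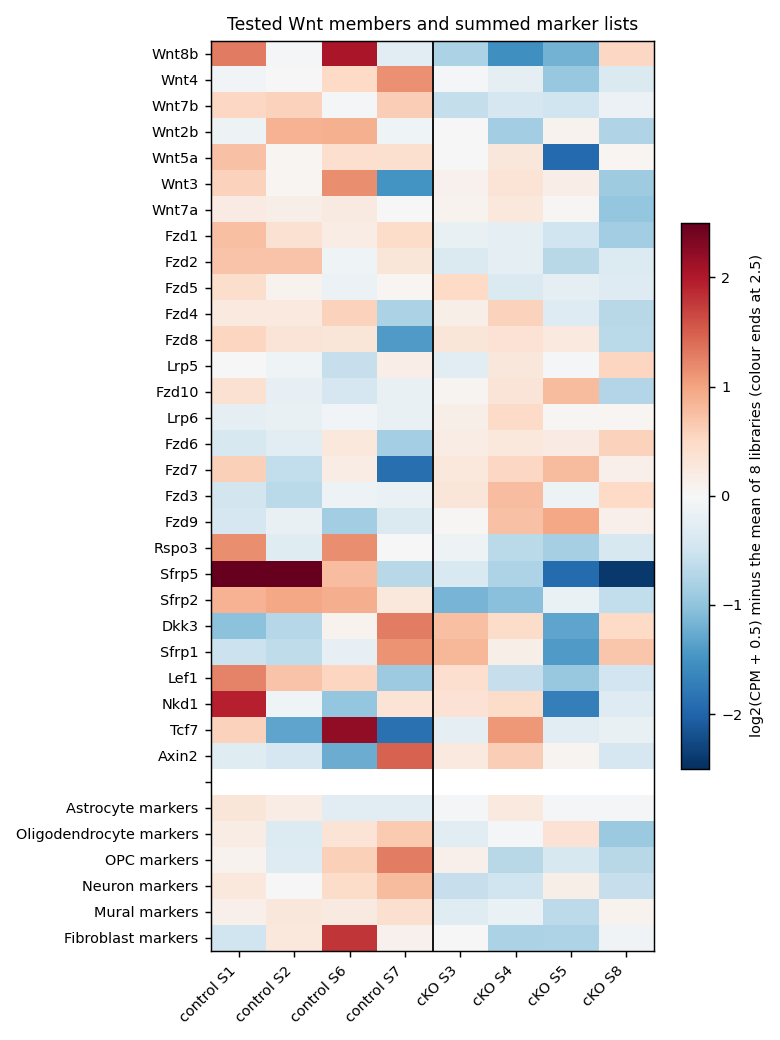
Deviation of each tested Wnt member, and of 6 summed marker lists, from its mean over the 8 libraries as log2(CPM + 0.5), in red where above and blue where below. The lists drawn are astrocyte, oligodendrocyte, precursor, neuron, mural and fibroblast. The endothelial, microglia, ependymal and Schwann lists, which did not all fall in cKO, are given in the text and not drawn. Control S7 stands out for Axin2 and Dkk3 above and Fzd7 below, and also for the precursor markers.

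Other genes of the pathway were taken from a list of 83 genes, of which 81 were matched and 72 tested. The list was chosen with earlier results of these data known, so its counts are a description and not independent support. In edgeR 2 passed the adjusted threshold, both higher in cKO, and 10 higher and 9 lower genes had an unadjusted p under 0.05. Over all tested genes the shares were 0.318% called, and 5.03% higher and 4.77% lower at that unadjusted p. Igfbp4, which binds insulin-like growth factors and can antagonize Frizzled and Lrp6, rose from 42.6, 42.9, 42.7 and 32.6 CPM in controls to 82.8, 111, 126 and 103 CPM in cKO (log2 fold change 1.40, standard error 0.18, adjusted p = 0.00787). Cd44, a hyaluronan receptor reported as a Wnt target in other tissues, rose from 9.51, 5.75, 9.61 and 7.96 CPM to 26.4, 32.1, 28.8 and 21.9 CPM (log2 fold change 1.73, standard error 0.26, adjusted p = 0.0144). Both calls were lost without cKO S4 (edgeR adjusted p = 0.0618 for Igfbp4 and 0.0751 for Cd44), and that of Cd44 also without control S2 (edgeR adjusted p = 0.0583).

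Among genes with the lowest p after these, receptor regulators went in either direction. Lgr6, an R-spondin receptor, was at 124, 116, 74.4 and 65.7 CPM in controls and at 39.1, 36.1, 16.9 and 54.2 CPM in cKO, with no overlap (log2 fold change −1.38, edgeR adjusted p = 0.102). The adjusted p of Lgr6 was 0.0337 with the filter of at least 1 count in any library, 0.0466 with at least 10 in every library, and 0.00413 in DESeq2. Apcdd1, a membrane Wnt inhibitor, was at 56.4 ± 29.5 and 21.01 ± 7.55 CPM (SD, n = 4 each), and Kremen1, a Dkk receptor, at 18.1 ± 4.40 and 31.8 ± 4.93 CPM (SD, n = 4 each). Ndp, which encodes the Fzd4 ligand Norrin, was at 33.6, 34.1, 24.2 and 26.5 CPM in controls and at 19.1, 22.3, 14.0 and 14.4 CPM in cKO (log2 fold change −0.76, edgeR adjusted p = 0.271). Inside the cell, Daam2, a Dishevelled-binding formin of glia, was at 352 ± 23.2 CPM in controls and 512 ± 73.4 CPM in cKO (SD, n = 4 each). The beta-catenin regulators Amer1 and Bcl9l and the corepressor Tle3 had positive log2 fold changes of 0.70, 0.58 and 0.69, and the corepressor Tle2 and the polarity cadherin Celsr2 negative ones of −0.92 and −0.52. Their edgeR adjusted p ran from 0.136 for Apcdd1 to 0.310 for Bcl9l. DESeq2 called 9 genes of the list, 6 higher and 3 lower, where it called 2.49% of all genes, 1.3% higher and 1.19% lower.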

How the data were processed

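Raw gene counts, 1 table per library, were deposited by the authors. Per the submitters' processing notes TopHat2 2.0.11, Bowtie2 2.2.3, HTSeq 0.6.1p1, DESeq2 1.14.1 and Cufflinks 2.2.1 were used on GRCm38. Annotation release and strand setting are not given in the sources used here. Whether reads over exons shared with an antisense gene were counted for a gene or set aside as ambiguous is therefore not known. The 5 summary lines of each count table, which name no gene, held 56.4% to 61.7% of reads and were left out. The authors also deposited FPKM values and a DESeq2 comparison which, per the file headers, holds p-values with their adjustment, log2 fold changes, a standard error and Wald statistic (each a score) and normalised mean counts as a signal.

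The test was edgeR 4.0.16's quasi-likelihood fit (TMM, filterByExpr, no covariate; R 4.3.3) over 14757 genes with Benjamini-Hochberg adjustment and a threshold of 0.05. Fold changes are cKO over control, and standard errors come from the F statistic. CPM use TMM-adjusted library sizes. DESeq2 1.42.0, limma 3.58.1 (voom), RLE size factors, library totals, other filters, Xist as a covariate and leaving out each library were alternatives. Exon lengths, overlaps and coordinates are from GENCODE mouse release 21 (GRCm38), with Python 3.11.15. Full statistics are given for members with an unadjusted p under 0.05 and the 12 with the highest mean CPM, and for list genes that were called plus up to 10 with the lowest p. Sfrp1, Dkk3, Axin2, Lef1, Tcf7, Nkd1, Wnt2b, Wnt3, Fzd5, Fzd8 and Rspo1 are named beyond this rule, to complete the roles, after their values were seen. Members and lists were chosen with earlier results of these data known. Intervals from counts of 0 cover counting error only.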

Additional observations from a re-analysis of the deposited data

Results flagged for a closer look

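Single libraries of 4 stood apart from the other 3 of their group in CPM in 4 instances. With 62 groups looked at, chance alone would give about 3.1. Wnt7b was at 39.5 CPM in control S6 against 58.3 to 61.8 CPM in the other controls. Igfbp4 was at 32.6 CPM in control S7 against 42.6 to 42.9 CPM in the other controls. Tle3 was at 63.8 CPM in cKO S3 against 75.5 to 77.2 CPM in the other cKO libraries, and Celsr2 at 110.3 CPM in cKO S5 against 154 to 155 CPM.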

How the results depend on the processing

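Kcnj10 kept its direction and its call in all 15 alternatives. The count of Wnt members called was 0 with edgeR, RLE size factors, library totals, limma-voom and Xist as a covariate. It was 2 with a filter of at least 1 count in any library (Fzd1 and Sfrp5), 1 with at least 10 counts in every library (Fzd1) and 6 with DESeq2, and 0 to 1 across the fits that left out 1 library. Without control S7 the 1 member was Sfrp5. For all genes the count was 47, and 87, 84 and 384 with the same settings in the same order, 28 with Xist as a covariate and 4 to 45 when 1 library was left out, namely 4 without cKO S4, 14 without control S2, 16 without control S6, 24 without cKO S5, 28 without cKO S8 and 30 without control S1. Library totals gave 62, of which 77.4% were higher, against 63.8% of the 47. They moved the median log2 fold change of all genes from −0.02 to 0.09. For the other pathway genes the count was 2, with 3 under both filters (Lgr6 added), 9 by DESeq2 and 0 to 2 when 1 library was left out, 1 without control S2 and 0 without cKO S4. Of the members named by rule Fzd4 alone changed sign, with log2 fold changes of −0.40 to 0.033 over the fits that left out 1 library. The cause of these shifts was not tested. Members with a control mean of 1 or more numbered 27 by FPKM and 26 by counts per kilobase, and in cKO 24 and 20. No paired analysis was possible because the groups share no replicate number. Libraries of 13892736 reads or more leave members near 1 CPM with few counts, which limits what could be seen for most ligands.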
